A study of Mus musculus with 12 samples.

Results

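The genes described here set the pace of the G1 phase of the cell cycle in mouse induced pluripotent stem (iPS) cells. They are the D-type cyclins Ccnd1, Ccnd2 and Ccnd3, their kinases Cdk4 and Cdk6, the kinase inhibitors Cdkn2a, Cdkn2b, Cdkn1a and Cdkn1b, and the retinoblastoma gene Rb1. The members were chosen by name, through the gene that the array annotation gives each probe set, and the brightest probe set stood for a gene with several. The members and the gene lists below were chosen with earlier results of these data known. Their counts beside array-wide shares are therefore a description and not an independent test. Of the 10 listed genes, 9 had a probe set of their own, out of 19938 genes with one on the array. The only probe set of Cdkn1a is annotated to Cdkn1a and to 4930567H12Rik, so its signal cannot be given to either gene and it is described apart, as the shared probe set.

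RNA was measured on 12 Affymetrix whole-transcript arrays from 4 iPS lines, with 3 biological repeats of each line. All 4 lines were derived from C57BL/6J mouse embryonic fibroblasts with 3 reprogramming factors and were grown in medium for embryonic stem cells. LiPS-45 and LiPS-57 are labelled as having tetraploid complementation competence, the ability to form a whole mouse when injected into a tetraploid host embryo, and LiPS-47 and LiPS-50 as lacking it. The labels name neither the 3 factors nor the ages or sexes behind the lines, and do not say whether feeder cells were present. With 2 lines a class, competence rests on 4 independent lines. The repeats are cultures of 1 line, so a p-value for a pair of lines reflects how cultures vary and says nothing of how independently made lines vary.

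In G1, D-type cyclins bind Cdk4 or Cdk6, and the active kinase phosphorylates the retinoblastoma protein, which then releases E2F transcription factors that switch on genes for DNA replication. Inhibitors of the Ink4 family, p15 from Cdkn2b and p16 from Cdkn2a, bind Cdk4 and Cdk6 directly, while the Cip/Kip proteins p21 (Cdkn1a) and p27 (Cdkn1b) bind cyclin-kinase complexes, those of Cdk2 in particular. Cdkn2a also encodes Arf, which stabilises p53 by holding back Mdm2. Mouse embryonic stem cells are known for a short G1 phase with little cyclin D activity, and the Ink4-Arf locus is a known barrier to reprogramming of mouse fibroblasts.

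All 10 probe sets had a mean above 5.21, the 40th percentile of all probe sets, on the log2(intensity + 1) scale that is used for every level here. The lowest was Cdkn2a, at percentile 59.4, and the highest was Cdk4, at percentile 98.4. The correlation between arrays of a line over probe sets, averaged within each line, was 0.996 to 0.997. The pluripotency markers, 12 genes that include Pou5f1, Sox2 and Nanog, had array means of 10.27 to 10.33 in LiPS-45, 10.31 to 10.35 in LiPS-57, 10.25 to 10.29 in LiPS-47 and 10.24 to 10.25 in LiPS-50. Against LiPS-50, 7, 6 and 6 of the 12 passed the test described below in LiPS-45, LiPS-57 and LiPS-47, with 5, 4 and 3 higher and 2, 2 and 3 lower. Over all probe sets 16.5%, 15.6% and 15.8% passed in either direction. All 12 markers had a mean above the 40th percentile. With probe sets below it removed, 5464, 5130 and 5129 of the 17363 left passed. Lin28a was higher by 0.44, 0.51 and 0.48 and Sall4 by 0.30, 0.29 and 0.30, whereas Fgf4 differed by -0.34, -0.29 and -0.30. The markers of fibroblasts and feeder cells, 23 measured genes that include Col1a2, Pdgfra and Dcn, averaged 8.54 to 8.79 in LiPS-45, 8.57 to 8.70 in LiPS-57 and 8.27 to 8.65 in LiPS-47, against 9.15 to 9.34 in LiPS-50. Their summed intensity was 18285 to 21880, 18719 to 20105 and 15637 to 19565 in those 3 lines, against 26459 to 29635 in LiPS-50, and no marker was at 0 in any culture. In the comparisons of LiPS-45, LiPS-57 and LiPS-47 with LiPS-50, all 23 markers were lower, with median differences of -0.65, -0.67 and -0.83. Of them, 22, 21 and 22 passed that test, where 8.18%, 8.16% and 8.48% of all probe sets passed as lower. RNA was taken from whole cultures, so a different share of fibroblast-like cells and a different amount of RNA per cell cannot be told apart.

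LiPS-50 was the line that stood apart in the G1 genes, in both directions. Its 3 cultures all lay above the other 9 for 6 of the 9 members, Ccnd1, Ccnd2, Ccnd3, Cdkn2a, Cdkn2b and Rb1, and all below them for Cdk6 and Cdkn1b. Over all 28939 tested probe sets, 18.3% had LiPS-50 outside the range of the other 9 arrays, 8.81% above and 9.54% below. Cdk4 was the member whose LiPS-50 cultures overlapped the rest. By limma with Benjamini-Hochberg adjustment over all probe sets and a threshold of 0.05, 8 of 9 members differed among the 4 lines, against 14.9% of all probe sets. LiPS-45 differed from LiPS-50 in 8 of 9 members, 2 of them higher and 6 lower, where 16.5% of all probe sets differed, 8.3% higher and 8.18% lower. For LiPS-57 the count was 7 of 9, with 2 higher and 5 lower, against 15.6% of probe sets, 7.48% higher and 8.16% lower. For LiPS-47 it was 8 of 9, with 2 higher and 6 lower, against 15.8% of probe sets, 7.31% higher and 8.48% lower. All 3 comparisons called 7 of 9 members, 5 higher and 2 lower in LiPS-50, against 10.4% of probe sets called in 1 direction in all 3, 5.86% higher and 4.57% lower in LiPS-50. These 3 comparisons share the LiPS-50 arrays and are not independent of each other. All 9 members had a mean above the 40th percentile of all probe sets. With probe sets below that percentile removed, 5464, 5130 and 5129 of the 17363 left were called for LiPS-45, LiPS-57 and LiPS-47 against LiPS-50. These shares are larger than those over all 28939 probe sets. In that fit 8 of 9 members were called in each comparison. The median difference over the 9 members was -0.38, -0.24 and -0.42 in the order LiPS-45, LiPS-57, LiPS-47 minus LiPS-50, and over all probe sets it was between -0.000237 and 0.014.

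**Figure D1:**
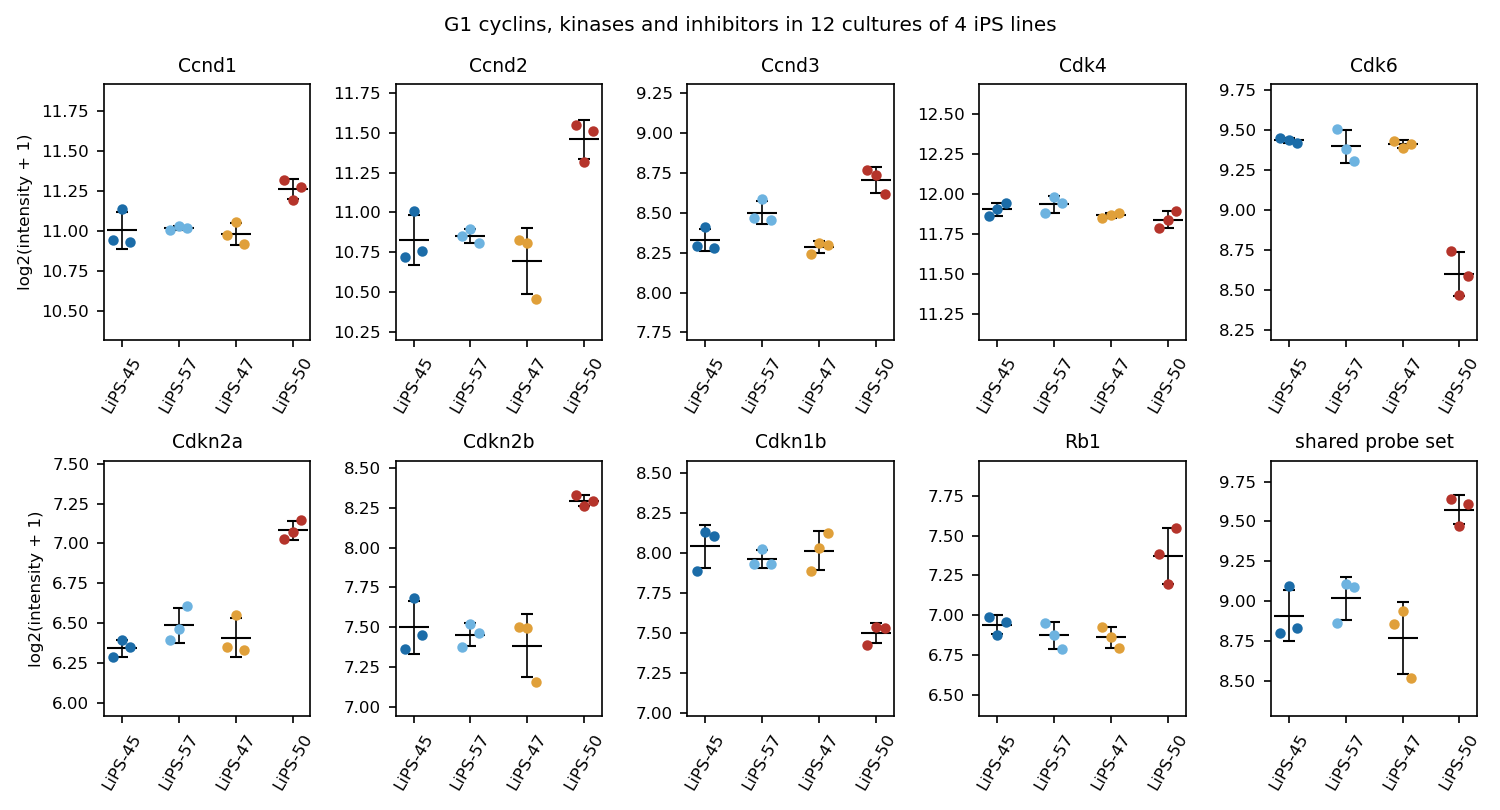
Level of each G1 gene in every culture, as log2(intensity + 1), by line. Each point is 1 culture, the bar is the mean and the whiskers are the SD (n = 3), and all panels span the same range of log2 units. The LiPS-50 points lie apart from the other 9 in every panel except that of Cdk4, above them for Ccnd2 (11.32 to 11.55) and Cdkn2b (8.26 to 8.33) and below them for Cdk6 (8.47 to 8.74).

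Of the D-type cyclins, which link growth signals to the G1 kinases, Ccnd2 differed most. Ccnd2 had levels of 10.72, 11.01 and 10.76 in LiPS-45, 10.85, 10.89 and 10.81 in LiPS-57, with 10.83, 10.81 and 10.46 in LiPS-47, against 11.55, 11.32 and 11.51 in LiPS-50. The lowest LiPS-50 culture lay above the highest of the other 9. Ccnd2 was 1.55-fold lower in LiPS-45 than in LiPS-50 (log2 difference -0.63 ± 0.11, SE, adjusted p = 0.00197), 1.52-fold lower in LiPS-57 (adjusted p = 0.00254) and lower by 1.69-fold in LiPS-47 (adjusted p = 0.000516). Ccnd1 showed smaller differences of the same sign: it had 10.94, 11.14 and 10.93 in LiPS-45, 11.01, 11.03 and 11.02 in LiPS-57, with 10.98, 11.06 and 10.92 in LiPS-47, against 11.32, 11.19 and 11.27 in LiPS-50. The gap between the nearest cultures of LiPS-50 and of the other lines was small, and Ccnd1 was 1.20-, 1.18- and 1.21-fold lower in LiPS-45, LiPS-57 and LiPS-47 than in LiPS-50 (adjusted p = 0.0235, 0.0332 and 0.0161). With arrays centred on their medians, the calls of Ccnd1 for LiPS-45 (adjusted p = 0.0813) and LiPS-57 (0.113) were lost. Its calls were also lost for LiPS-45 without LiPS-45 replicate 1 or 3 or LiPS-50 replicate 1 or 3 (adjusted p = 0.0660 to 0.0959), for LiPS-57 without any 1 of its own cultures or LiPS-50 replicate 1 or 3 (0.0745 to 0.113), and for LiPS-47 without LiPS-47 replicate 3 or LiPS-50 replicate 1 or 3 (0.0512 to 0.0657).

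Ccnd3, the third D-type cyclin, was the only member whose level also differed among the other 3 lines before adjustment. It had 8.29, 8.41 and 8.28 in LiPS-45, 8.47, 8.58 and 8.45 in LiPS-57, with 8.24, 8.31 and 8.30 in LiPS-47, against 8.77, 8.73 and 8.62 in LiPS-50. The LiPS-57 cultures lay between LiPS-50 and the other 2 lines and overlapped neither. Set against LiPS-50, Ccnd3 was lower 1.30-fold in LiPS-45 (adjusted p = 0.00205) and 1.34-fold in LiPS-47 (0.000879), whereas the difference of LiPS-57, -0.20 ± 0.07 (SE), missed the threshold at an adjusted p of 0.0541 and passed it without LiPS-57 replicate 2 (0.0479) or LiPS-50 replicate 3 (0.0419). LiPS-57 exceeded LiPS-47 by 0.22 and LiPS-45 by 0.17, with unadjusted p of 0.00593 and 0.0212 and adjusted p of 0.476 and 0.535 by limma.

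Among the kinases, Cdk6 was the member that differed most clearly and Cdk4 the member that did not differ by the test. Cdk6 had 9.45, 9.44 and 9.42 in LiPS-45, 9.51, 9.38 and 9.31 in LiPS-57, with 9.43, 9.39 and 9.42 in LiPS-47, against 8.74, 8.47 and 8.59 in LiPS-50. The 9 cultures outside LiPS-50 spanned 9.31 to 9.51 and the 3 of LiPS-50 sat well below them. Set against LiPS-50, Cdk6 was higher 1.79-fold in LiPS-45 (adjusted p = 1.62e-05), 1.74-fold in LiPS-57 (3.03e-05), with 1.76-fold in LiPS-47 (2.21e-05). Cdk4 averaged 11.91 ± 0.04 in LiPS-45, 11.94 ± 0.05 in LiPS-57, with 11.87 ± 0.02 in LiPS-47, against 11.84 ± 0.05 in LiPS-50 (SD, n = 3 each). Its differences from LiPS-50 were 0.064, 0.095 and 0.027, with 95% intervals of -0.058 to 0.187, -0.027 to 0.218 and -0.095 to 0.150, and adjusted p of 0.520, 0.326 and 0.824. The intervals exclude a difference of the size seen for Cdk6.

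The start-site regions of both kinases are shown because these 2 genes share a role and 1 of them differed from LiPS-50 while the other did not pass the test. Each region holds the 250 bases before the start site in RefSeq annotation of build GRCm38.p6, written 5′ to 3′ on the strand of the gene. Capitals mark the E box CACGTG, bound by Myc and related factors, the GC box GGGCGG, the CCAAT box CCAAT and the TATA box TATAAA, or the E2F motif in one of the forms TTTCCCGC, TTTCGCGC, TTTGCCGC and TTTGGCGC, on either strand.
Cdk6 (chr5:3343643-3343892, + strand): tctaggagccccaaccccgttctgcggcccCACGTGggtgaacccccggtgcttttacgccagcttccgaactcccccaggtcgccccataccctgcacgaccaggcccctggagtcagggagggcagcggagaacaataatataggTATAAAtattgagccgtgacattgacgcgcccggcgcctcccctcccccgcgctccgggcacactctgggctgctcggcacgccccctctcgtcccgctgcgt
Cdk4 (chr10:127063285-127063534, + strand): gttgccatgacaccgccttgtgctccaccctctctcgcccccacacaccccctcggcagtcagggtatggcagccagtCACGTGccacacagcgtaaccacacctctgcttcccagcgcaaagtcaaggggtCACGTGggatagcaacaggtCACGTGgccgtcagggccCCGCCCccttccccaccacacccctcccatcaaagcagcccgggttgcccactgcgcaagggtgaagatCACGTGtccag
Cdk4 held 4 E boxes and 1 GC box, and Cdk6 held 1 E box and 1 TATA box. Over 32851 promoters of the same length, 6.02% held an E box, 32.7% a GC box, 33.8% a CCAAT box, 12.4% a TATA box and 1.86% the E2F motif. A match describes letters in the window and not a bound site.

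The Ink4 inhibitors stood in the opposite direction to Cdk6. Cdkn2b, which encodes p15, had 7.36, 7.68 and 7.45 in LiPS-45, 7.38, 7.52 and 7.47 in LiPS-57, with 7.50, 7.49 and 7.16 in LiPS-47, against 8.33, 8.26 and 8.29 in LiPS-50. No culture of the other lines came near those of LiPS-50, and the differences were 1.74-, 1.79- and 1.88-fold lower in LiPS-45, LiPS-57 and LiPS-47 (adjusted p = 0.000257, 0.000193 and 9.62e-05). Cdkn2a had 6.29, 6.39 and 6.35 in LiPS-45, 6.39, 6.46 and 6.61 in LiPS-57, with 6.35, 6.55 and 6.33 in LiPS-47, against 7.03, 7.07 and 7.15 in LiPS-50. It was 1.67-, 1.51- and 1.59-fold lower in the same order (adjusted p = 5.59e-05, 0.000334 and 0.000122). Its single probe set lists 2 RefSeq transcripts of the gene, so p16 and Arf transcripts cannot be told apart.

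Both inhibitors are neighbours on mouse chromosome 4, and the regions before their start sites are shown because the genes were higher in LiPS-50 together. Cdkn2a has separate start sites for Arf, the upstream one on the minus strand, and for p16.
Cdkn2b (chr4:89311033-89311282, − strand): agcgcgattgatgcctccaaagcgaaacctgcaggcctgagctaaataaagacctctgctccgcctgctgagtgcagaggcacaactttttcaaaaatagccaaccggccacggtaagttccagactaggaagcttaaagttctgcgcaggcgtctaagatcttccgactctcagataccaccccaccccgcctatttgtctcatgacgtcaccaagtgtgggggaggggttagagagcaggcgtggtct
Cdkn2a, Arf start (chr4:89294620-89294869, − strand): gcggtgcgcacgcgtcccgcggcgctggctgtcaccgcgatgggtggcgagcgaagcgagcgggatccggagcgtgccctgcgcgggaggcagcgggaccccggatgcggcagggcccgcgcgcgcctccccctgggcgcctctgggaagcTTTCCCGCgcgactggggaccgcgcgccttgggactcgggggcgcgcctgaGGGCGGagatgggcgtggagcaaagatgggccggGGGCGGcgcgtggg
Cdkn2a, p16 start (chr4:89282193-89282442, − strand): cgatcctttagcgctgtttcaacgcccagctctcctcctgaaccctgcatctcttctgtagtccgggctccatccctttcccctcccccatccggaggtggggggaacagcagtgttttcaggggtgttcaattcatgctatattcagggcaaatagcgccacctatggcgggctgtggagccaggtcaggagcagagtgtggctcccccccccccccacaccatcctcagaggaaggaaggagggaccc
The Arf region held 2 GC boxes and 1 E2F motif, and the Cdkn2b and p16 regions held none of the letters searched.

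Cdkn1b, the gene of p27, which holds back Cdk2 in quiescent cells, was the inhibitor with its lowest levels in LiPS-50. It had 7.89, 8.13 and 8.11 in LiPS-45, 7.93, 8.03 and 7.93 in LiPS-57, with 7.89, 8.03 and 8.13 in LiPS-47, against 7.43, 7.54 and 7.53 in LiPS-50. All 9 cultures of the other lines lay above LiPS-50. Set against LiPS-50, Cdkn1b was higher 1.46-fold in LiPS-45 (adjusted p = 0.000828), 1.38-fold in LiPS-57 (0.00241), with 1.43-fold in LiPS-47 (0.00103). A second, dim probe set of Cdkn1b, with a mean of 5.15, pointed the same way, with differences of 0.64, 0.57 and 0.33 and adjusted p of 0.0185, 0.0349 and 0.224. The region before its start is shown as the pair to that of Cdk6, the other member lower in LiPS-50.
Cdkn1b (chr6:134920151-134920400, + strand): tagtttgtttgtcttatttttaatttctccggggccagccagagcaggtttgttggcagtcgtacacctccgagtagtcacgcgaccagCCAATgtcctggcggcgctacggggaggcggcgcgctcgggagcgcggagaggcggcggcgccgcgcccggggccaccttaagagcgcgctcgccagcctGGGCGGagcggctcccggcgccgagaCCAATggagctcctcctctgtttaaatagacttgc
It held 2 CCAAT boxes and 1 GC box and, unlike the Cdk6 region, neither an E box nor a TATA box.

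Rb1, the gene of the protein that the cyclin D kinases inactivate, had 6.99, 6.88 and 6.96 in LiPS-45, 6.95, 6.88 and 6.79 in LiPS-57, with 6.93, 6.86 and 6.79 in LiPS-47, against 7.38, 7.20 and 7.55 in LiPS-50. Of the 4 lines, LiPS-50 had the widest spread between cultures, with an SD of 0.18, and still did not overlap the rest. Rb1 was 1.35-, 1.41- and 1.43-fold lower in LiPS-45, LiPS-57 and LiPS-47 than in LiPS-50 (adjusted p = 0.0045, 0.00201 and 0.00143). The probe set shared by Cdkn1a and 4930567H12Rik had 8.80, 9.09 and 8.83 in LiPS-45, 8.86, 9.11 and 9.09 in LiPS-57, with 8.86, 8.94 and 8.52 in LiPS-47, against 9.64, 9.47 and 9.61 in LiPS-50. It was 1.58-, 1.47- and 1.74-fold lower in the same 3 lines (adjusted p = 0.00226, 0.00688 and 0.000603), and which of the 2 genes gave the signal is unknown.

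LiPS-45, LiPS-57 and LiPS-47 were close to each other in these genes, as they were over the whole array, although they span both competence classes. None of the 9 members passed the limma test between LiPS-45 and LiPS-57, LiPS-45 and LiPS-47, or LiPS-57 and LiPS-47, where 0.266%, 0.0622% and 0.159% of all probe sets did. At an unadjusted p under 0.05 the counts were 1, 0 and 1, Ccnd3 in both cases. The 95% intervals of these 27 differences ran from -0.32 to 0.39 at their outermost, and both Ccnd3 intervals named above, 0.076 to 0.361 for LiPS-57 minus LiPS-47 and -0.316 to -0.031 for LiPS-45 minus LiPS-57, left out 0 before adjustment. Between the competent lines (LiPS-45 and LiPS-57) and the others (LiPS-47 and LiPS-50), with the line as a random block, 0 of 9 members passed, as did 0% of all probe sets. Before adjustment, Cdk6 was higher by 0.41 (unadjusted p = 0.0262) and Cdkn2a lower by 0.33 in the competent lines (unadjusted p = 0.0395), and 2226 probe sets in all had an unadjusted p under 0.05. Both differences came from LiPS-50, and LiPS-47 was close to the competent lines. Cdk6 averaged 9.44, 9.40 and 9.41 in LiPS-45, LiPS-57 and LiPS-47, against 8.60 in LiPS-50. For Cdkn2a the averages were 6.34, 6.49 and 6.41, against 7.08. The 2 classes overlapped for all 9 members. With 0.802% of probe sets showing competent arrays outside the range of the other 6, separation by class was rare over the array too.

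The fibroblast markers tended to move with several of these genes from culture to culture, though not in every one. The LiPS-47 culture with the lowest list mean, 8.27, also had the lowest Ccnd2, Cdkn2b and shared probe set of all 12. A fit with the mean of the list as a covariate beside the line was therefore made. In that fit the difference of LiPS-45 from LiPS-50 was -0.0049 ± 0.14 for Ccnd2, 0.037 ± 0.12 for Ccnd1 and 0.045 ± 0.13 for the shared probe set (SE). For Cdkn2b it was -0.24 ± 0.14, against -0.80 without the covariate. Cdk6 had differences of 0.89 ± 0.17, 0.85 ± 0.17 and 0.88 ± 0.21 in LiPS-45, LiPS-57 and LiPS-47 minus LiPS-50, at least as large as without it, with adjusted p of 0.0476, 0.0668 and 0.158. Cdkn1b, Cdkn2a, Rb1 and Ccnd3 lost the calls they had, with smaller differences of the same sign. Cdkn1b had 0.45, 0.37 and 0.40 with the covariate, against 0.54, 0.46 and 0.52 without it (adjusted p with it 0.392, 0.531 and 0.630). Cdkn2a had -0.50, -0.36 and -0.38, against -0.74, -0.59 and -0.67 (0.242, 0.456 and 0.569). For Rb1 the values were -0.29, -0.36 and -0.34, against -0.43, -0.50 and -0.51 (0.629, 0.563 and 0.713), and for Ccnd3 -0.31, -0.13 and -0.33, against -0.38, -0.20 and -0.42 (0.478, 0.829 and 0.600). Cdk4, which had no call, differed by 0.065, 0.096 and 0.029 with the covariate. The slope on the list mean was 1.13 ± 0.18 for the shared probe set (adjusted p = 0.0488), 0.99 ± 0.19 for Ccnd2 (0.0736), 0.88 ± 0.20 for Cdkn2b (0.142) and 0.085 ± 0.25 for Cdk6 (0.977). All 3 LiPS-50 cultures exceeded the other 9 on the list, so line and list mean overlap little, and only 1, 0 and 0 of 9 members were called in this fit, along with 193, 139 and 79 of all probe sets.

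**Figure D2:**
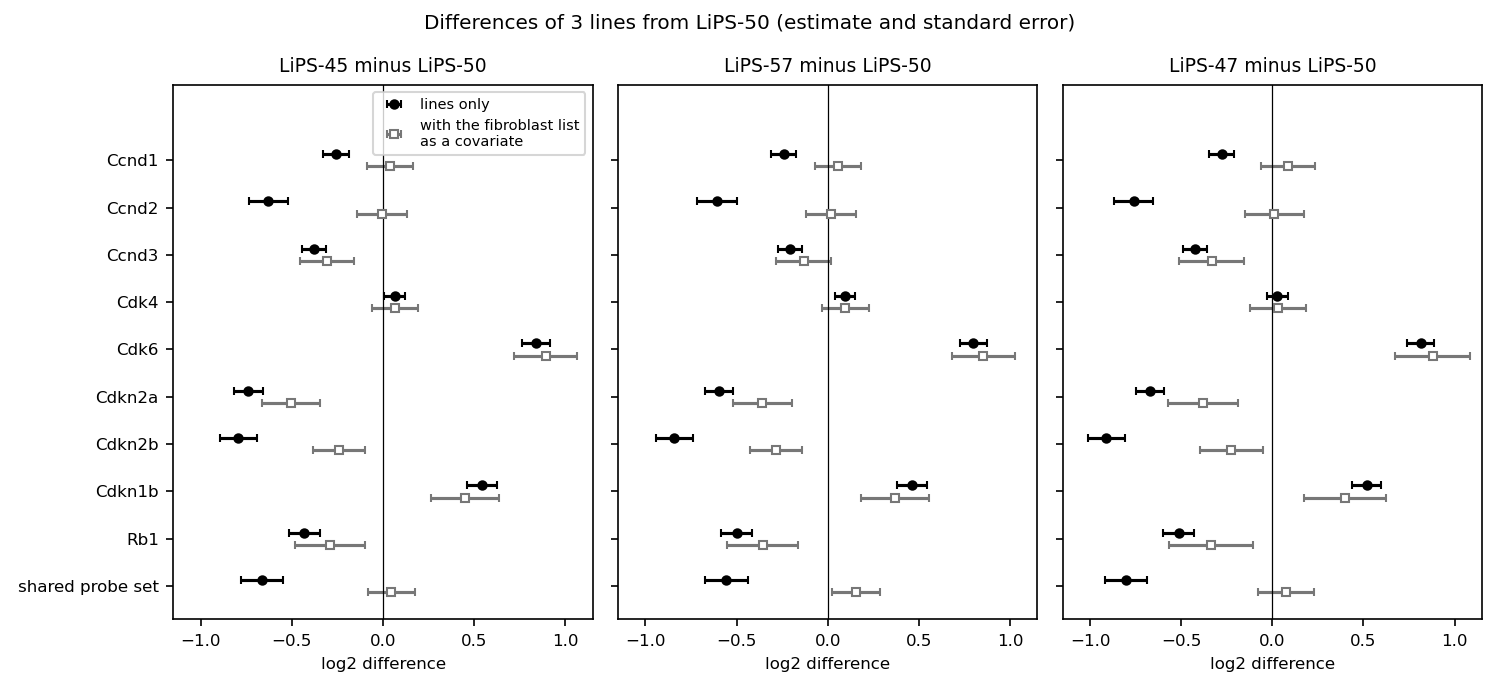
Log2 difference of LiPS-45, LiPS-57 and LiPS-47 from LiPS-50 for each G1 gene, with its standard error, from the fit of the 4 lines (black) and from the fit with the mean of the fibroblast and feeder list as a covariate (grey). Cdk6 stays near 0.8 to 0.9 in both fits, whereas Ccnd1, Ccnd2 and the shared probe set lie near 0 in the second.

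**Figure D3:**
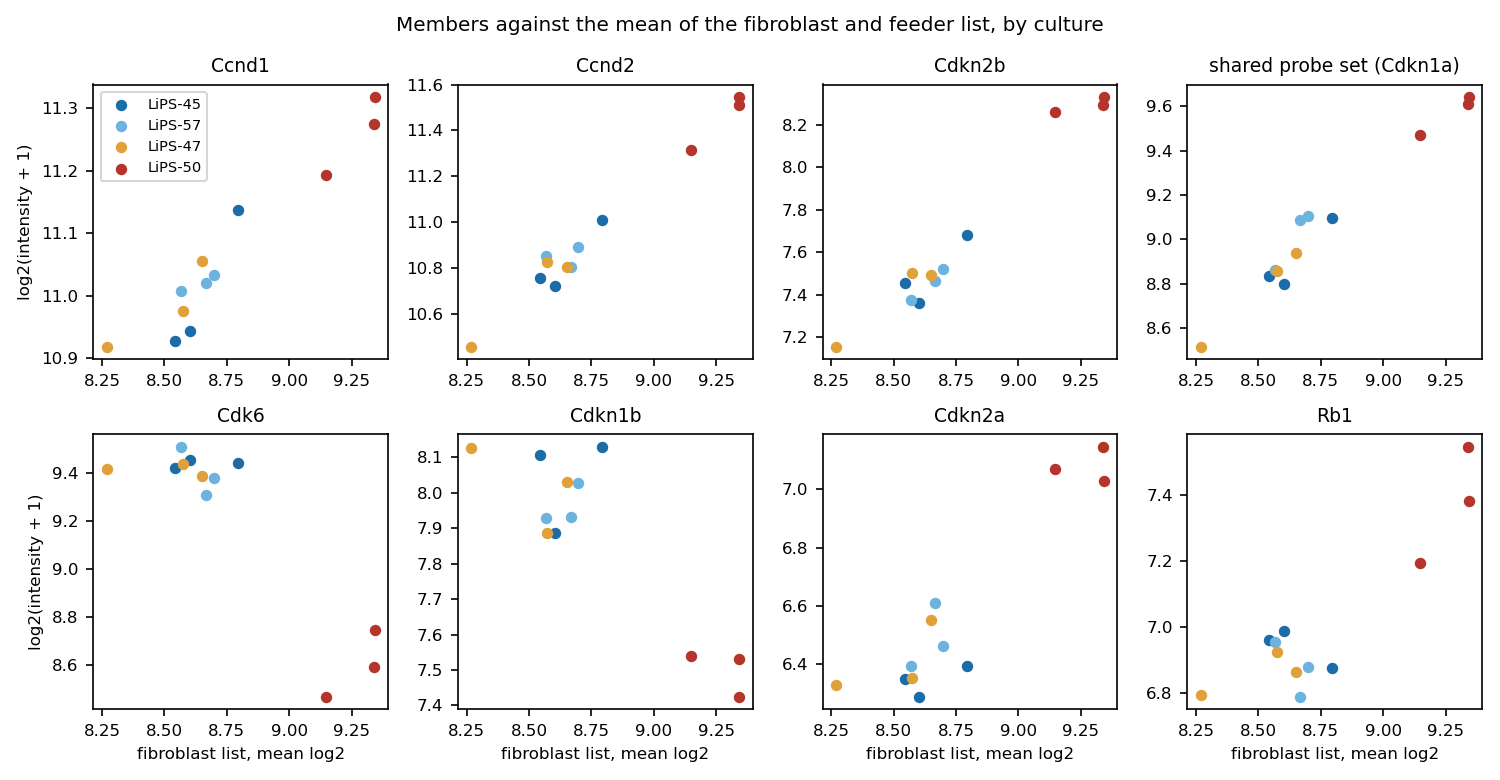
Level of 8 probe sets, as log2(intensity + 1), against the mean log2 level of the fibroblast and feeder list, 1 point per culture and 1 colour per line, with each panel on its own range. Ccnd2, Cdkn2b and the shared probe set tend to climb with the list, though not from every culture of a line to the next. In LiPS-57, for example, Ccnd2 was 10.85 at a list mean of 8.57 and 10.81 at 8.67. Cdk6 does not follow the list among the 9 cultures outside LiPS-50.

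Among other genes of the G1/S step, those that passed the test were higher in the lines set against LiPS-50. Of 23 partners, which include cyclin E, Cdk2, E2F factors and the Skp2 ubiquitin ligase that marks p27 for destruction, 6, 8 and 4 were called higher in LiPS-45, LiPS-57 and LiPS-47 than in LiPS-50 and 0 were called lower. The median differences over the 23 were 0.10, 0.06 and 0.08. Over all probe sets 16.5%, 15.6% and 15.8% were called in these comparisons (8.3%, 7.48% and 7.31% called higher), and the share of the partners called in LiPS-47 was near that of all probe sets in either direction. The same shares apply to the lists that follow. Only Cdkn2c of the partners, and no gene of those lists, had a mean below the 40th percentile. With probe sets below it removed, 5464, 5130 and 5129 of the 17363 left were called. That share is close to that of the partners for LiPS-45 and LiPS-57 and above it for LiPS-47. E2f5, an E2F factor that acts mainly as a repressor, was higher by 0.60, 0.53 and 0.50 (adjusted p = 0.000972, 0.00224 and 0.00255). Cdc25a, the phosphatase that activates Cdk2, was higher by 0.22, 0.27 and 0.30 (0.0331, 0.0114 and 0.00565). Cks1b, a cofactor of Skp2, was higher by 0.22, 0.25 and 0.20 (0.016, 0.00812 and 0.0226). Skp2 itself was higher by 0.28 and 0.27 in LiPS-45 and LiPS-47 (0.0163 and 0.0193) and by 0.22 in LiPS-57, which missed the threshold at 0.0517. E2f4 passed in LiPS-57 (0.38, adjusted p = 0.00356) and Tfdp2, a partner of E2F factors, in LiPS-45 and LiPS-57 (0.34 and 0.24, adjusted p = 0.00743 and 0.0433). Ccne2, named here after its values were seen, was higher by 0.54 and 0.52 in LiPS-45 and LiPS-57 (0.0152 and 0.0198).

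E2F target genes, which replicate DNA, were, where they passed the test and with 1 exception, higher in the other lines than in LiPS-50. Of 23 measured genes, 8, 10 and 8 were called higher and 1 was called lower in each comparison, with median differences over the 23 of 0.15, 0.21 and 0.17. The shares over all probe sets were 8.3%, 7.48% and 7.31% called higher and 8.18%, 8.16% and 8.48% lower. Pcna, the sliding clamp of DNA polymerase, averaged 11.36 in LiPS-45, 11.41 in LiPS-57, with 11.36 in LiPS-47, against 11.08 in LiPS-50, and was higher by 0.27, 0.33 and 0.27 (adjusted p = 0.00336, 0.00102 and 0.00291). Rfc3, a clamp loader, was higher by 0.29, 0.28 and 0.36, Ccna2, the S-phase cyclin, by 0.26, 0.29 and 0.32, and Orc1, which marks replication origins, by 0.38, 0.31 and 0.31. Mcm5, part of the replicative helicase, was higher by 0.18, 0.26 and 0.19 (0.0443, 0.00756 and 0.0323). The 1 gene called lower was Pola1, the catalytic subunit of DNA polymerase alpha, at -0.61, -0.76 and -0.76. Pola1 lies on the X chromosome, where 75.9%, 74.97% and 71.2% of 739 genes were higher in LiPS-50, against 52.0%, 50.8% and 46.95% of 19199 genes elsewhere.

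Targets of p53, of which Cdkn1a is one, went the other way. Of 17 measured, 10, 9 and 10 were called lower in LiPS-45, LiPS-57 and LiPS-47 than in LiPS-50 and 1, 0 and 0 were called higher. Array-wide, 8.18%, 8.16% and 8.48% of probe sets were called lower and 8.3%, 7.48% and 7.31% higher. The median differences over the 17 were -0.31, -0.31 and -0.42. Mdm2, the ubiquitin ligase of p53, averaged 10.37, 10.29 and 10.24 against 10.87 in LiPS-50, with differences of -0.51, -0.58 and -0.63 (adjusted p = 0.000945, 0.0004 and 0.000198). Trp53inp1, a stress-induced cofactor of p53, differed by -0.38, -0.49 and -0.47, and Ccng1, a cyclin induced by p53, by -0.31, -0.35 and -0.37. Tnfrsf10b, a death receptor, differed by -0.50, -0.49 and -0.45, Perp, a membrane protein of apoptosis and cell adhesion, by -0.43, -0.52 and -0.49, and the X-linked receptor gene Eda2r by -0.70, -0.75 and -0.77. The fibroblast marker list was higher in LiPS-50 in the same cultures. With its mean as a covariate, 0 of these 17 genes passed in any of the 3 comparisons and their medians were -0.08, -0.07 and -0.0058, and 0 of the E2F targets passed, with medians of 0.07, 0.15 and 0.11. In that fit only 193, 139 and 79 of all 28939 probe sets passed, so a count of 0 does not set these lists apart. The cause of the differences was not tested.

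Regulators of the Ink4-Arf locus were split. Of 16, 5, 3 and 2 were called higher and 3, 4 and 3 called lower in LiPS-45, LiPS-57 and LiPS-47 than in LiPS-50. Over all probe sets 8.3%, 7.48% and 7.31% were called higher and 8.18%, 8.16% and 8.48% lower. With probe sets below the 40th percentile removed, 5464, 5130 and 5129 of 17363 were called in either direction. For LiPS-47 the 5 of 16 regulators called were close to that share. Ezh2, the methyltransferase of Polycomb complex PRC2, was higher by 0.26, 0.28 and 0.28 (adjusted p = 0.013, 0.00839 and 0.00691), and Kdm2b, a histone demethylase that represses the locus, by 0.38, 0.38 and 0.36. Tbx3 and Bmi1, a subunit of Polycomb complex PRC1, also repress the locus. Tbx3 was lower in all 3 lines, with differences of -0.62, -0.62 and -0.72, and Bmi1 in LiPS-45 and LiPS-47, with -0.40 and -0.31 (0.00737 and 0.0276), while its -0.25 in LiPS-57 missed the threshold at 0.0791. Id1, an inhibitor of helix-loop-helix factors, differed by -0.38, -0.36 and -0.38, and Ets2, an activator of the p16 promoter in human cells, by -0.26 in LiPS-57 (0.0341).

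Of 15 regulators of D-type cyclins and p27, 5 were called higher in each of LiPS-45, LiPS-57 and LiPS-47 than in LiPS-50, and 3, 4 and 4 were called lower. Among all probe sets, 8.3%, 7.48% and 7.31% were called higher and 8.18%, 8.16% and 8.48% lower. Lin28b, an RNA-binding protein that blocks maturation of the let-7 microRNAs, averaged 8.13, 7.98 and 7.96 in these lines, against 6.95 in LiPS-50, and differed by 1.18, 1.02 and 1.01 (adjusted p = 3.69e-07, 1.4e-06 and 1.45e-06). In human cells, let-7 is known to target CDK6 and CCND2. Here the mouse genes went opposite ways, with Cdk6 lower and Ccnd2 higher in LiPS-50 than in the other lines. A link to Lin28b or let-7 was not tested. Lin28a, its relative, differed by 0.44, 0.51 and 0.48, Mycn by 0.61, 0.59 and 0.49, and Myc by 0.32, 0.36 and 0.35. Smad3, which carries TGF-beta signals to Cdkn2b, differed by -0.41, -0.37 and -0.37, and the growth factor receptor Egfr by -0.35, -0.41 and -0.40. With the covariate, 1, 1 and 0 of the 15 passed, as did 0 of the 16 regulators of the Ink4-Arf locus and 0 of the 23 G1/S partners in each comparison. Only 193, 139 and 79 of all 28939 probe sets passed in that fit. No gene of any of these lists was called between LiPS-45, LiPS-57 and LiPS-47, or between the competence classes.

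**Figure D4:**
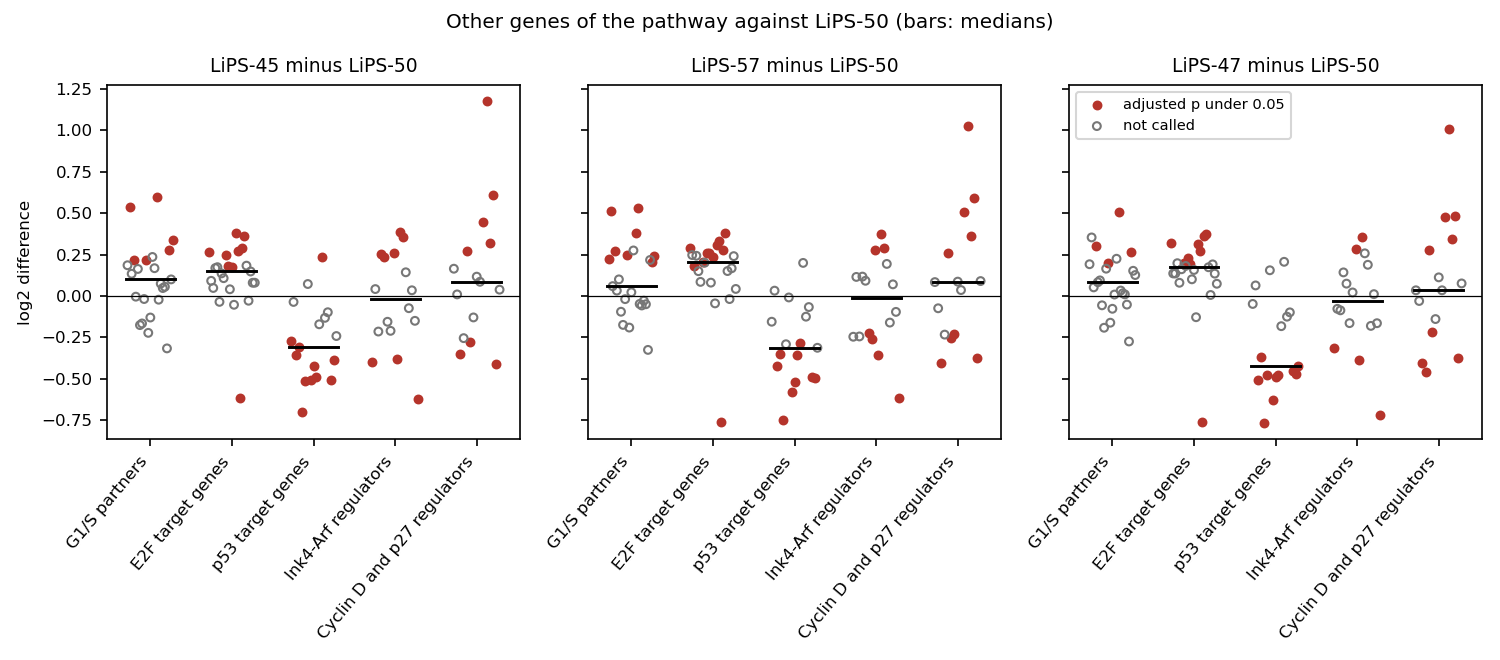
Log2 difference of LiPS-45, LiPS-57 and LiPS-47 from LiPS-50 for every measured gene of 5 lists, 1 point per gene, red where the adjusted p is under 0.05, with black bars at the medians. G1/S partners and E2F targets lie mostly above 0 and p53 targets mostly below 0, and the 2 lists of regulators spread to both sides.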

How the data were processed

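The authors deposited 1 table of linear array intensity per probe set for 12 samples. Per the submitters' processing notes it was made with GCOS 1.4, and how probe sets were summarised or normalized is not stated in any source used here. Array number limits precision. Each value was taken as log2(intensity + 1), a log2 scale computed from the deposited values, with no further normalization, since array medians spanned 0.0981 log2 units. Of 35556 probe sets, 6617 numbered below the annotated range were left out as controls. Of the 28939 tested, 21789 had 1 gene symbol, 1621 several and 5529 none. No sample column was left unused.

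Line means were fitted with limma 3.58.1 in R 4.3.3, on 8 residual plus 4.06 prior degrees of freedom. Two-sided p-values of the 6 pairs, of an F test over the 4 lines and of competence (line as a random block, consensus correlation 0.183) were adjusted by Benjamini-Hochberg over all tested probe sets. Arrays shared at most 0.607% identical values, so each counted as a sample. All members were named in every comparison. Of the 5 pathway lists, the 6 genes with the lowest F test p were named, plus Ccne2; the 2 marker lists are summarised, with defining markers or examples named that this rule did not choose. The members and lists were chosen with earlier results of these data known. Bax and Fbn1, of the p53 target and fibroblast lists, had no probe set of their own. The fit was tested on simulated data with known changes. Promoters are from RefSeq; 7 of the 10 members had entries, and Ccnd1, Ccnd2 and Rb1 had none. Alternatives were a replicate block, median centring, quantile normalization, removal of dim probe sets, a pseudocount of 16, the control probe sets, the mean of a gene's probe sets, other error models, the fibroblast list as a covariate and leaving out each culture.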

Additional observations from a re-analysis of the deposited data

How the results depend on the processing

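With 1 culture left out at a time, the count of members called was 7 to 8 for LiPS-45, 6 to 7 for LiPS-57 and 7 to 8 for LiPS-47 against LiPS-50, 7 to 8 in the test over the 4 lines and 0 elsewhere. With the fibroblast list as a covariate, the counts fell to 1 for LiPS-45 and 0 for LiPS-57 and LiPS-47 against LiPS-50, and 0 over the 4 lines, and signs turned for Ccnd1 (0.037, 0.056 and 0.088), for Ccnd2 in LiPS-57 (0.020) and LiPS-47 (0.012), for the shared probe set (0.045, 0.156 and 0.074, and 0.043 between competence classes) and for Ccnd3 between the classes (0.040). This fit has 7 residual degrees of freedom and a covariate that separates LiPS-50, so its standard errors are larger. With the spread between cultures as the error, 4 members were called between the competence classes, Cdk6 (adjusted p = 0.000771) and Cdkn1b (0.027) higher and Cdkn2a (0.00402) and Cdkn2b (0.0111) lower in the competent lines, where 1789 of 28939 probe sets were called, against 0 members and 0 probe sets with the line as a block. Cultures of 1 line are not independent samples of a class, and none of these 4 members passed between LiPS-47 and LiPS-45 or LiPS-57. Ccnd3 in LiPS-57 against LiPS-50 passed under 5 other settings, among them quantile normalization (0.0436) and a pseudocount of 16 (0.0246). Ccnd1 lost calls with median centring (0.0813 in LiPS-45, 0.113 in LiPS-57 and 0.127 over the 4 lines), with only LiPS-45 and LiPS-50 in the fit (0.0746), over the 4 lines with control probe sets included (0.0578), and without single cultures, and in the test over the 4 lines its adjusted p was 0.0572 to 0.171 without any 1 of 10 cultures, highest without LiPS-50 replicate 1; the cause was not tested.

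Same-numbered cultures of different lines had deviations from their line means that correlated at -0.169 to 0.121, 4 of 18 over 0.1. Cultures with different numbers correlated at -0.179 to 0.199. The values gave no sign that the numbers pair the samples, but cannot show that no day or batch was shared. With the replicate number as a block, the members called were 8, 8 and 8 of 9 against LiPS-50, Ccnd3 gained its call in LiPS-57 (adjusted p = 0.0483) and Ccnd1 lost it in the test over the 4 lines (0.0605).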

Other observations

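The genes most like the 3 members with the lowest p over the 4 lines were looked up among 12953 genes above the 40th percentile, by Pearson correlation over 12 arrays. The 12 arrays share the gap between LiPS-50 and the rest, so high values are common. Cdk6 was most like Elavl2 (0.986), Kcnj3 (0.985), Ttll4 (0.984) and Zic5 (0.984). Kcnj3, a potassium channel gene, averaged 7.13 in LiPS-45, 7.18 in LiPS-57, with 7.06 in LiPS-47, against 5.55 in LiPS-50. Cdkn2a was most like Spon2 (0.986), Septin6 (0.977), Fabp3 (0.976) and Emd (0.974), of which Septin6 and Emd lie on the X chromosome. Cdkn2b was most like Cd81 (0.995), Sparc (0.990), Fstl1 (0.989) and Col6a1 (0.988), and Sparc and Col6a1 belong to the fibroblast list.

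The neighbours of Cdkn2a and Cdkn2b on chromosome 4 were looked at after the values of the pair were seen. Mtap, a neighbour with a level above the 40th percentile, averaged 8.68 ± 0.10 in LiPS-45, 8.71 ± 0.05 in LiPS-57, with 8.68 ± 0.02 in LiPS-47, against 8.80 ± 0.11 in LiPS-50 (SD, n = 3 each). Its differences of -0.12, -0.09 and -0.11 did not pass limma (adjusted p = 0.324, 0.495 and 0.365). Dmrta1, Ifne and Zfp352, which lay below that percentile, did not pass either.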
